A study of Mus musculus with 20 samples.

Results

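The ADAM and ADAMTS genes of mouse encode related metalloproteases, and 43 of them were followed through the growth of the testis after birth. They were taken as every gene whose symbol on the array starts with Adam or Adamts followed by a digit, 28 ADAM and 15 ADAMTS genes of 18193 genes in all, and each was read from 1 probe set, the brightest by mean log2 intensity. The study measured total RNA of mouse testis with 20 single-channel 3' arrays, 2 per day: day 0 (birth), days 3, 6, 8 and 10 in the first stretch, days 14, 18 and 20 in the middle, and days 30 and 35 at the end. The labels name no treatment and give neither strain, genotype nor the number of animals behind an array, and the 2 arrays of a day may be technical repeats, in which case the p-values cover technical spread alone. The array titled as day 18 replicate 2 reads day 0 in another label; its log2 intensities correlated with Pearson's r = 0.969 with the other array of day 18 and at most 0.769 with those of day 0, across genes, and it is treated as day 18.

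ADAM proteins are anchored in the membrane by a single span and carry a prodomain, a metalloprotease domain and a disintegrin domain. Some shed growth factors, cytokines and receptors from cell surfaces, while many of those made by male germ cells have lost the residues that bind the catalytic zinc and serve on the sperm head in migration through the oviduct and in contact with the egg. ADAMTS proteins lack the membrane span, carry thrombospondin type 1 repeats, and are secreted into the extracellular matrix, where they cut proteoglycans and procollagens. The seminiferous epithelium fills with germ cells in a first synchronous wave after birth, in which spermatogonia, meiotic spermatocytes, round spermatids and elongating spermatids appear in turn.

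The marker sums of the labelled tissue rose in that order, with overlap between the spermatocyte and round spermatid lists. The summed intensity of 8 spermatocyte markers was 10455 to 10579 on day 14 and 508 to 513 on day 0, that of 8 round spermatid markers 13361 to 13465 on day 20 and 107 to 123 on day 10, and that of 8 elongating spermatid markers 55348 to 56706 on day 30 and 589 to 620.4 on day 20. The round spermatid sum was already 1299 to 1427 on day 14 and 8159 to 9035 on day 18. On day 14 against day 8, 4 of the 8 round spermatid markers and all 8 spermatocyte markers rose, beside 5.48% of all genes. The round spermatid list therefore does not mark that stage alone. In whole tissue, fewer cells of a type and less RNA per cell cannot be told apart, and this holds for every value below. Array medians ran between 29.4 and 43.4, and r between the 2 arrays of a day, across genes, between 0.952 and 0.986. The 27 probe sets for bacterial transcripts read 8.22 in the median on arrays from day 18 on and 1.84 up to day 14, and the part of this shift in differences across those spans was not tested. Differences are of log2(intensity + 7.83), later day minus earlier day, with the standard error (SE) of limma, a linear model fitted to all 20 arrays, and they understate the change of dim genes. Calls needed an adjusted p below 0.05 and a difference of 1 or more in either direction.

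Over the whole course the families parted. On day 35 against day 0, 17 of 26 tested ADAM genes rose and 5 fell, while 1 of 15 ADAMTS genes rose and 11 fell. Of all 16429 genes tested, 27.3% rose and 27.6% fell. The median difference was 2.90 for the ADAM genes, -1.95 for the ADAMTS genes and -0.03 for all genes. Over the 10 days, 23 of 26 ADAM and 14 of 15 ADAMTS genes were called by the moderated F test, beside 77.6% of all genes. Of the called genes, 16 of 23 ADAM genes and 0 of 14 ADAMTS genes had their highest mean on day 30 or 35, against 35.1% of all called genes. Highest means on days 0 to 10 belonged to 5 ADAM and 12 ADAMTS genes, against 44.4% of all called genes. The ADAM count was not uniform: 15 of the 17 genes that rose are those known from testis and sperm, and all 15 of these rose, while the 11 tested ADAM genes of somatic tissues gave 2 rises and 5 falls.

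**Figure D1:**
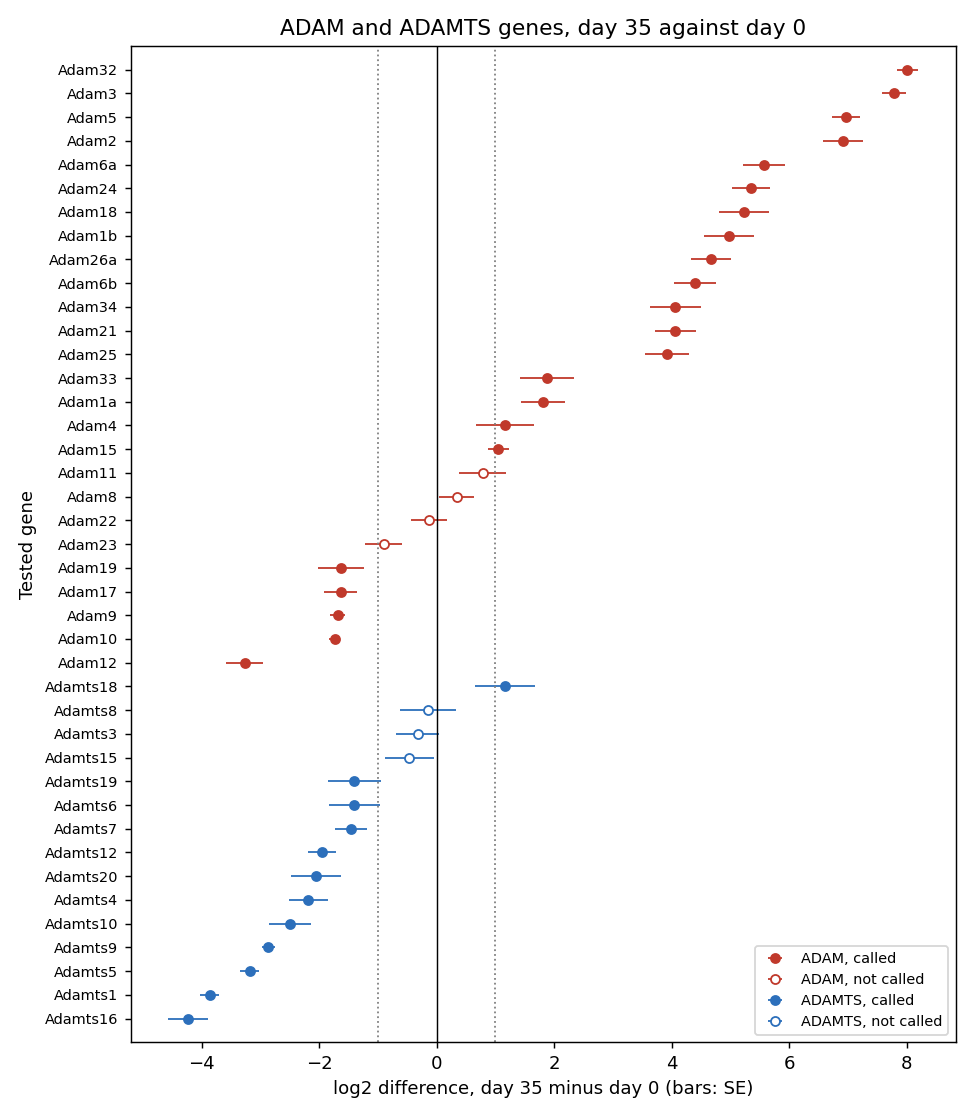
Each point is the log2 difference of a tested gene, day 35 minus day 0, with its SE as a bar, ADAM genes in red and ADAMTS genes in blue, filled where called and open where not; dotted lines mark a difference of 1 in either direction. The ADAM genes span 8.01 (Adam32) to -3.26 (Adam12), and all ADAMTS genes but Adamts18 lie below 0.

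A few of the sequences in front of the genes are shown because the classes differ in their CG dinucleotides where a sequence was at hand, given here as a description. RefSeq promoter windows (assembly GRCm38.p6) were at hand for 20 of the 43 genes. In the 250 bases upstream of the start, with the first listed window of each gene, the 7 testis ADAM genes held 0 to 4 CG dinucleotides (median 1), the 7 somatic ADAM genes 5 to 29 (median 18) and the 6 ADAMTS genes 6 to 35 (median 18.5), against a median of 6 over 32851 windows of the same length, of which 44.4% held 4 or fewer. Another listed window of Adam19, a somatic ADAM gene, held 4, as that of Adam1a did. The testis ADAM genes with a window were Adam1a, Adam1b, Adam6a, Adam6b, Adam21, Adam25 and Adam34. Adam2, Adam3, Adam4, Adam5, Adam18, Adam24, Adam26a and Adam32 had none, so the class as a whole was not read. The windows of 3 testis ADAM genes are printed first, then those of a somatic ADAM gene and of 2 ADAMTS genes, each 5′ to 3′ on the strand of the gene with CG dinucleotides in capitals.
Adam1b, chr5:121503436-121503685, minus strand: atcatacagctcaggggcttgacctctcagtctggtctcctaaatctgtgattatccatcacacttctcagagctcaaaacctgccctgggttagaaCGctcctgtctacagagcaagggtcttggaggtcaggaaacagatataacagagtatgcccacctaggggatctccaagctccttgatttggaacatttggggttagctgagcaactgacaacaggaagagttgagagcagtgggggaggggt
Adam6a, chr12:113543658-113543907, plus strand: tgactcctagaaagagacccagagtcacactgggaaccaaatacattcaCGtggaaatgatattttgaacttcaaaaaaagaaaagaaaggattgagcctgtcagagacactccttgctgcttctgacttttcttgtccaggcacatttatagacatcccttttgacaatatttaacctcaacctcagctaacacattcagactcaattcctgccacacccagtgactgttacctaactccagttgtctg
Adam21, chr12:81568475-81568724, minus strand: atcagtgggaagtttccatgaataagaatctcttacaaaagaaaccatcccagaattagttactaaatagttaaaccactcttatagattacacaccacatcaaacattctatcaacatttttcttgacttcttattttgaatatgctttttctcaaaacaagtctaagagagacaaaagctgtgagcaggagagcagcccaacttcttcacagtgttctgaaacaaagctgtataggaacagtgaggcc
Adam10, chr9:70678732-70678981, plus strand: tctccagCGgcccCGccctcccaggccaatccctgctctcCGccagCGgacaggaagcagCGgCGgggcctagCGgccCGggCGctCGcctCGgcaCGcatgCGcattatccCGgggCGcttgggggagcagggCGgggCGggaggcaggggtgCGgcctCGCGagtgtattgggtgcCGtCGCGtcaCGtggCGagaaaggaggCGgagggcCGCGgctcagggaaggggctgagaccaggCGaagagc
Adamts1, chr16:85803114-85803363, minus strand: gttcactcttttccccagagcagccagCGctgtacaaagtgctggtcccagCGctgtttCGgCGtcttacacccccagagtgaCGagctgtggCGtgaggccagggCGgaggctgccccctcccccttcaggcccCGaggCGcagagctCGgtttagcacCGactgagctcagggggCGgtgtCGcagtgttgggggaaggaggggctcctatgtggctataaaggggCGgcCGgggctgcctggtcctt
Adamts9, chr6:92943535-92943784, minus strand: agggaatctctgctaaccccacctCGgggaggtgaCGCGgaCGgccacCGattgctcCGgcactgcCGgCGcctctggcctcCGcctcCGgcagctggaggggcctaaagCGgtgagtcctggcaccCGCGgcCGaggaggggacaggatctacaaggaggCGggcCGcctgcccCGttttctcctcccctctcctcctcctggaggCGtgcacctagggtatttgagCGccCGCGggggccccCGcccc
Adam1b and Adam6a hold 1 CG each and Adam21 holds 0, where Adam10 holds 29, Adamts1 15 and Adamts9 22. The cyclic AMP response element TGACGTCA, searched on both strands, was in 0 of the 20 windows and in 1.55% of all windows. The letters TATAAA, also on both strands, were in those of Adam6a, Adam6b and Adamts1 and in 12.4% of all windows.

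**Figure D2:**
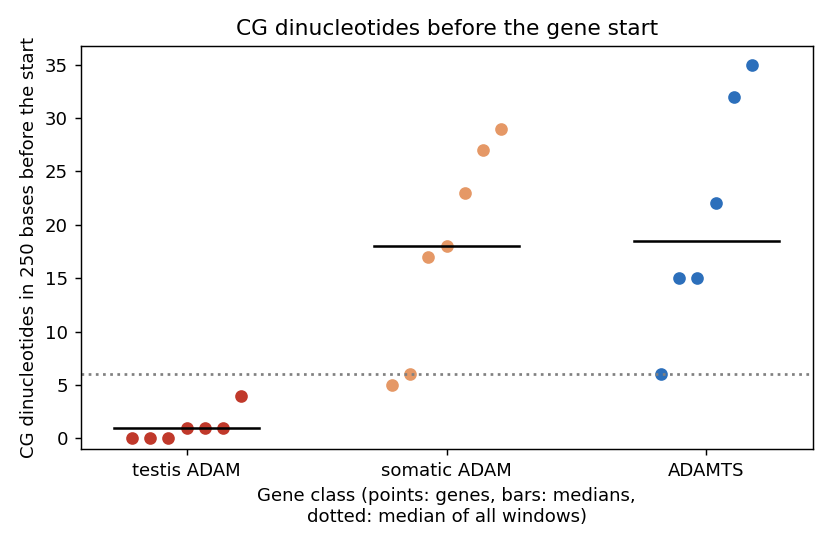
Each point is a gene, placed by its number of CG dinucleotides in the 250 bases before its start, for 7 testis ADAM, 7 somatic ADAM and 6 ADAMTS genes; bars are class medians and the dotted line the median of all windows, 6. With the first listed window of each gene, the testis ADAM points all lie at 4 or below, under every point of the other classes. Another window of Adam19, a somatic ADAM gene, held 4 and is not plotted.

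The fertilins came up in separate steps. Adam2, fertilin beta, a sperm surface protein with no catalytic zinc site that pairs with the fertilin alpha proteins, lay between 0.778 and 16.2 on the 10 arrays of days 0 to 10. It read 525 and 404 on day 14, 1765 and 1898 on day 18, 2258 and 2572 on day 20, 2497 and 2071 on day 30 and 2158 and 2192 on day 35. Every array from day 14 on was above every earlier array, the arrays of day 30 overlapped those of days 20 and 35, and both arrays of day 35 lay below those of day 20. On day 14 against day 8 it rose by 4.92 ± 0.34 (log2, SE; adjusted p = 1.19e-09), and on day 20 against day 14 by 2.37 ± 0.34 (log2, SE; adjusted p = 7.06e-06).

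Adam1b, the fertilin alpha form found on the sperm surface with Adam2, followed later. It lay between 0.728 and 8.86 on days 0 to 10, with 36.6 and 3.45 on day 14, where 1 array was still at the early level. It then read 212 and 192 on day 18, 373 and 368 on day 20, 427 and 439.6 on day 30 and 467 and 428 on day 35, each day from 18 on clear of all earlier days up to day 14. The difference on day 20 against day 14 was 4.08 ± 0.42 (log2, SE; adjusted p = 1.00e-07). Adam1a, the fertilin alpha form that pairs with Adam2 inside the endoplasmic reticulum of spermatogenic cells, is its neighbour on chromosome 5. Adam1a read 3.27 to 24.8 on days 0 to 10, 15.4 and 22.2 on day 14, 64.4 and 69.1 on day 18, 38.1 and 19.8 on day 20, 91.7 and 82.7 on day 30 and 62.4 and 88.3 on day 35. Its day 20 arrays lay below those of day 18, and 1 of them overlapped days 0 to 10. Adam1a rose by 1.41 ± 0.37 (log2, SE; adjusted p = 0.00429) on day 30 against day 20, a call lost without day 20 replicate 2 (difference 1.05), and by 1.81 ± 0.37 (log2, SE; adjusted p = 2.29e-04) on day 35 against day 0.

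Among the other sperm surface ADAM genes, 4 of 7 rose on day 20 against day 14, beside 18.2% of all genes. Adam3, cyritestin, is a sperm protein without a catalytic site that male mice need for sperm to pass from uterus to oviduct. Adam3 stayed between 0.571 and 3.47 on days 0 to 10 and read 29.0 and 29.2 on day 14, 612 and 734 on day 18, 1552 and 1559 on day 20, 2448 and 2472 on day 30 and 2411 and 2288 on day 35. The arrays of each day through day 30 were above those of the day before from day 14 on, and both arrays of day 35 lay below those of day 30. It rose by 1.91 ± 0.20 (log2, SE; adjusted p = 4.47e-07) on day 14 against day 8 and by 5.40 ± 0.20 (log2, SE; adjusted p = 1.58e-13) on day 20 against day 14; with intensities floored at the pooled median the first of these is 0.

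Adam32, a testis ADAM of chromosome 8, had the widest range of day means of the 41 tested genes. It read 0.317 to 7.92 on days 0 to 10, 71.4 and 62.6 on day 14, 867 and 939 on day 18, 1663 and 1647 on day 20, 2379 and 2428 on day 30 and 2605 and 2293 on day 35. The day 14 arrays already lay above all early ones. Differences were 3.09 ± 0.18 (log2, SE; adjusted p = 1.15e-10) for day 14 against day 8 and 4.48 ± 0.18 (log2, SE; adjusted p = 4.44e-13) for day 20 against day 14, and 8.01 ± 0.18 (log2, SE; adjusted p = 6.92e-18) for day 35 against day 0. The day 0 arrays were near the bacterial control probe sets, so that the size of the last depends on the pseudocount: it was 6.14 with the floor and 9.58 with the 5th percentile pseudocount. The first was 0.95 with the floor.

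Adam5, a sperm surface ADAM known to sit in a complex with Adam3, had its largest step by day 14, as Adam2 did. Its arrays read 4.13 to 22.2 on days 0 to 10, 309 and 241 on day 14, 1664 and 1838 on day 18, 2775 and 2639 on day 20, 2849 and 2632 on day 30 and 3010.0 and 2898 on day 35. Days 20 and 30 overlapped, and all arrays from day 14 on were above the early ones. Adam5 rose by 3.89 ± 0.24 (log2, SE; adjusted p = 2.47e-10) on day 14 against day 8 and by 3.27 ± 0.24 (log2, SE; adjusted p = 1.12e-09) on day 20 against day 14. Adam18, also called tMDC III, a germ cell ADAM without a catalytic site, read 0.455 to 20.9 on days 0 to 10 and 17.9 and 18.5 on day 14, inside the early range. It then read 262 and 274 on day 18, 612 and 605 on day 20, 651 and 671 on day 30 and 576 and 566 on day 35, so that its highest arrays were those of day 30. Adam18 rose by 4.57 ± 0.42 (log2, SE; adjusted p = 2.41e-08) on day 20 against day 14.

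Adam6a and Adam6b, close copies on chromosome 12 that encode sperm surface proteins, had their largest step on day 30, and their probe sets may share signal. Adam6a stayed between 0.329 and 6.17 on all 16 arrays of days 0 to 20, near the medians of the bacterial control probe sets. It read 331 and 330.2 on day 30 and 459 and 455 on day 35, with no overlap between any of these. The step on day 30 against day 20 was 4.77 ± 0.36 (log2, SE; adjusted p = 2.78e-09), and Adam6b rose by 2.26 in the same interval. Adam6b read 20.3 and 20.8 on day 18 and 14.8 and 20.2 on day 20, above all its arrays of days 0 to 14, and 150.4 and 83.6 on day 30 and 192 and 218 on day 35. Adam4, a further sperm surface ADAM, was called on day 35 against day 0 at 1.16 but not over the course (F test, adjusted p = 0.0594), and its call was lost under 6 of 10 processing alternatives and without either array of day 0 or without day 35 replicate 1 (0.71).

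**Figure D3:**
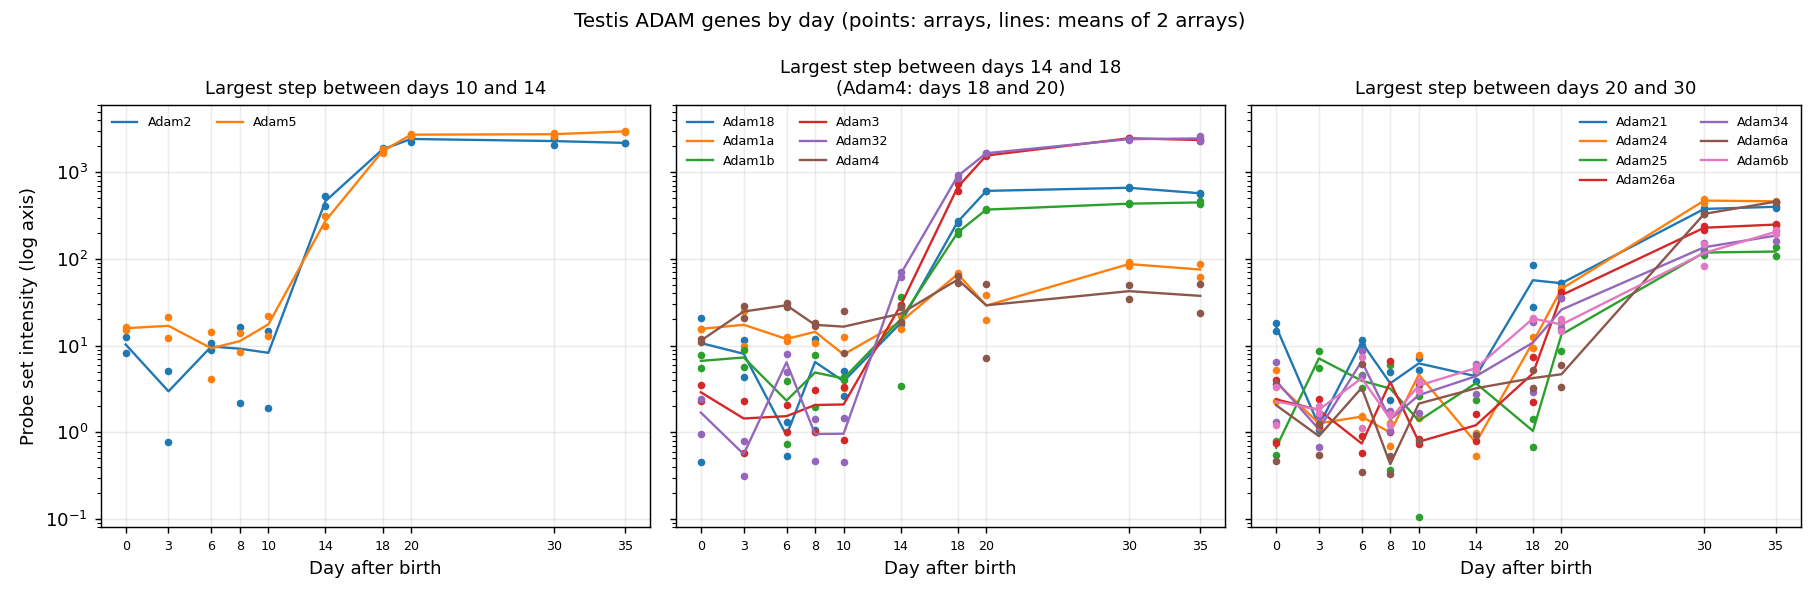
Probe set intensity (log axis) of the 15 testis ADAM genes against day after birth, 1 point per array and lines through the means of 2 arrays, in panels by the day on which the largest step between neighbouring days ended. Steps are log2 differences with the pseudocount added: Adam2 and Adam5 step up by day 14, 5 genes by day 18 (with Adam4 in the same panel) and 7 genes by day 30. The plotted intensities have no pseudocount, and on them Adam32 rises most by day 14 (means 0.964 on day 10, 67.0 on day 14 and 903 on day 18). Adam21, Adam24, Adam25, Adam26a and Adam34 then rise most before day 30, from dim values. The panel of these genes therefore depends on the pseudocount.

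The testases, testis ADAM genes that keep the catalytic zinc site, and Adam21 were late. Adam24, testase 1, which is known from mature sperm and from the block to entry of further sperm into the egg, read 0.529 to 7.82 on days 0 to 14, 12.5 and 9.42 on day 18, 44.2 and 46.1 on day 20, 445 and 495 on day 30 and 453 and 469 on day 35. The arrays of days 30 and 35 overlapped and were above all others. Adam24 rose by 2.62 ± 0.32 (log2, SE; adjusted p = 8.46e-07) on day 20 against day 14 and by 3.17 ± 0.32 (log2, SE; adjusted p = 1.13e-07) on day 30 against day 20. All 5 genes of the group rose on day 30 against day 20, where 9.84% of all genes did. Adam25 passed the filter on low values through days 30 and 35 alone, so its rise is no independent test. Beside Adam24, the differences were 2.68 for Adam21, 2.60 for Adam25, 2.36 for Adam26a and 2.15 for Adam34. With intensities floored at the pooled median, the earlier rises on day 20 against day 14 shrank to 0.60 for Adam21, 0.39 for Adam24, 0.14 for Adam26a and 0.03 for Adam34, and were no longer called.

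Counted by interval, 4, 10 and 8 of the 26 tested ADAM genes rose on the last 3 of 4 successive intervals. On day 8 against day 0, 0 of 26 ADAM genes rose and 1 fell (Adam21, -1.09, not called when any 1 array of those days was left out, with a day 8 mean of 3.67), beside 3.29% and 2.77% of all genes. On day 14 against day 8, 4 rose and 0 fell, beside 5.48% and 2.5% of all genes. On day 20 against day 14, 10 rose and 2 fell, beside 18.2% and 11.2%. On day 30 against day 20, 8 rose and 2 fell, beside 9.84% and 6.73%. Adam21, Adam24, Adam26a and Adam34 are among the risers of both later intervals, and Adam2, Adam3, Adam5 and Adam32 among those of the earlier pair. At an unadjusted p under 0.05 in limma, 1 ADAM gene was higher and 3 were lower on day 8 against day 0. On day 14 against day 8, 5 were higher and 1 was lower at that cut, for which the share of all genes was not counted. These intervals share arrays of days 8, 14 and 20.

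The share of the day 35 mean that was present on day 20 shows the same timing within each gene. It was 111% for Adam2, 107% for Adam18, 91.6% for Adam5, 82.7% for Adam1b, 67.6% for Adam32 and 66.2% for Adam3. Adam1a stood at 38.4%. Adam21 and the testases lay between 9.79% and 15.3%, Adam6b at 8.54% and Adam6a at 1.02%. None lay between Adam3 and Adam1a, and Adam4, at 77.8%, had day 20 arrays at 19.2% and 136%. As a description of levels beside it, the summed round spermatid markers were 25253 to 26314 on day 35 and 13361 to 13465 on day 20, and the elongating spermatid markers 52966 to 59020.1 on day 35 and 589 to 620.4 on day 20.

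**Figure D4:**
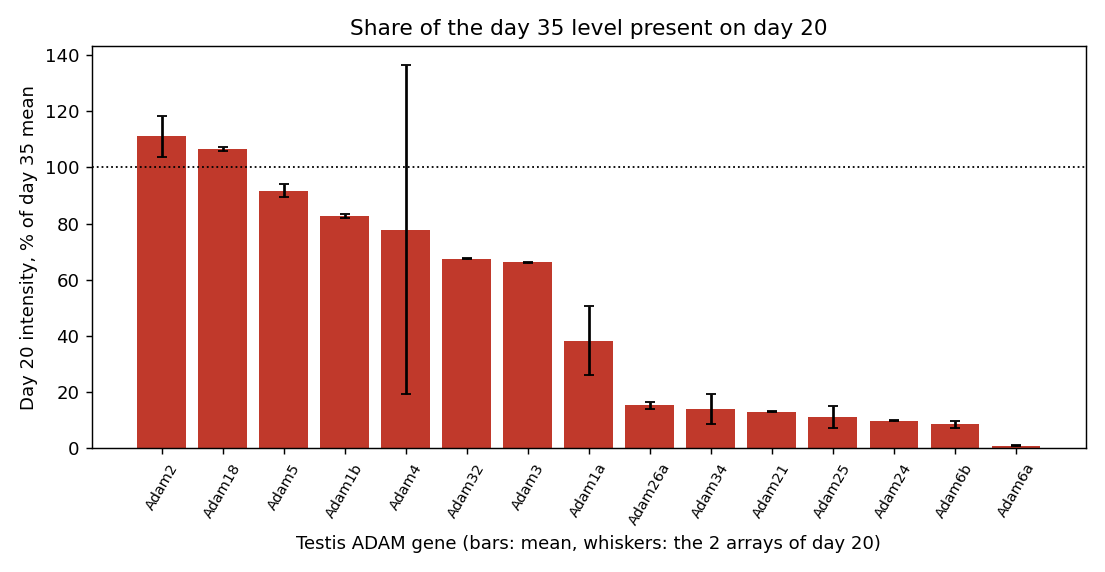
Bars give the day 20 mean intensity of each of the 15 testis ADAM genes as a percent of its own day 35 mean, with whiskers at the 2 arrays of day 20 and a dotted line at 100%. The bars fall into a group from 66.2% (Adam3) to 111% (Adam2), Adam1a at 38.4%, and 7 genes from 1.02% (Adam6a) to 15.3% (Adam26a).

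The testis ADAM genes lie in a few runs. Of the 15 testis ADAM genes, 8 lie on chromosome 8, 4 on 12, 2 on 5 and 1 on 14, while the 15 ADAMTS genes are spread over 10 chromosomes, and 0 of the 43 genes is X-linked. On chromosome 8, RefSeq lists Adam18, Adam3, Adam5, Adam32 and Adam9 as neighbours in that order. The first 4 rose, with largest steps, as log2 differences with the pseudocount, ending on day 14 (Adam5) or day 18. Adam9, a somatic ADAM at the end of the run, fell by 1.68 on the log2 scale on day 35 against day 0, with means of 135 ± 23.3 on day 35 and 448 ± 41.9 on day 0 (SD, n = 2). The late Adam24 and Adam25 adjoin each other elsewhere on chromosome 8, and Adam26a and Adam34 share another run there with Adam26b and Adam34l, which are not analysed here.

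The sheddases went the other way. Adam10, which releases Notch receptors and cadherins, read 669 and 691 on day 0, 677 and 709 on day 3, 863 and 874 on day 6, 766 and 845 on day 8, 904 and 906 on day 10 and 811 and 949 on day 14. It read 613 and 575 on day 18, 482 and 436 on day 20, 248 and 221 on day 30 and 206 and 192 on day 35, and both arrays of each day from day 18 on were below all earlier arrays. On day 35 against day 0 Adam10 differed by -1.73 ± 0.09 (log2, SE; adjusted p = 1.20e-12). Its differences were -0.93 on day 20 against day 14 and -0.94 on day 30 against day 20, just short of the threshold of size. The first was called with a common median (-1.14), as the mean of its probe sets (-1.18) and without day 14 replicate 1 (-1.04), and the second with a common median (-1.14) and without day 20 replicate 2 (-1.01) or day 30 replicate 1 (-1.02).

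Adam17, the tumour necrosis factor alpha converting enzyme, lay between 312 and 397 on days 0 to 14. It read 279.8 and 254 on day 18, 207 and 198 on day 20, 139 and 44.2 on day 30 and 124 and 79.8 on day 35, with the 2 arrays of day 30 far apart. The difference on day 35 against day 0 was -1.63 ± 0.28 (log2, SE; adjusted p = 3.17e-05). That on day 30 against day 20 was -1.27 ± 0.28 (log2, SE; adjusted p = 0.00104), and without day 30 replicate 2 it was -0.52 and not called.

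The other somatic ADAM genes with a protease site were mixed. Adam12, a meltrin of mesenchyme and muscle, fell by 3.26 on the log2 scale on day 35 against day 0, Adam9 by 1.68 and Adam19, another meltrin, by 1.63. Adam19 differed by -0.82 without day 35 replicate 1 and was then not called. The fall of Adam12 on day 30 against day 20 (-1.26) was not called without day 30 replicate 1 (-0.47) or day 20 replicate 2 (-0.97). Nor was it called with the 40th percentile pseudocount (-0.90), the floor (-0.62) or the mean of its probe sets (-0.55). The other probe set of Adam12 differed by 0.16 in that interval. Adam33 rose by 1.88 and Adam15 by 1.05, while Adam8 differed by 0.34 and was not called. Adam33 read 88.1 and 88.3 on day 35 but 17.5 and 32.1 on day 30, inside its range of 6.72 to 33.3 on days 0 to 10. The other probe set of Adam33, which did not pass the filter, differed by 0.17. Adam15 depended on its probe set: the other 3 that pass the filter differed by -0.36, -0.49 and -0.53, and the mean of all its probe sets by -0.08. None of the 3 ADAM genes without a catalytic site that are best known from the nervous system was called on day 35 against day 0 by limma, with differences of 0.78 for Adam11, -0.14 for Adam22 and -0.90 for Adam23; Adam23 passed the test (adjusted p = 0.0150) but not the threshold of size.

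The 2 epididymal ADAM genes, Adam7 and Adam28, stayed dim and were not tested. Adam7, made by the epididymis and passed to sperm, read 1.81 to 19.4 over the 20 arrays, with 19.2 and 16.7 on day 0. Adam28, an ADAM of lymphocytes and epididymis, read 3.16 to 16.6, with its highest arrays, 16.6 and 16.4, on day 35.

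The ADAMTS genes fell at different times. On day 8 against day 0, 0 of 15 rose and 1 fell, beside 2.77% of all genes lower. The same counts, 0 and 1, held on day 14 against day 8, beside 2.5% lower, then 0 and 3 on day 20 against day 14, beside 11.2%, and 0 and 2 on day 30 against day 20, beside 6.73%. With 15 genes, a single call is already more than the share of all genes in the first of these intervals. At an unadjusted p under 0.05 in limma the genes higher in those intervals, in order of time, numbered 0, 0, 1 and 2. Those lower numbered 5, 5, 6 and 4, and the share of all genes at that cut was not counted. The first day from which every array lay under 50% of the gene's day 0 mean was day 8 for Adamts16 and Adamts20, day 10 for Adamts1, day 14 for Adamts7 and day 18 for Adamts5, Adamts9 and Adamts12. It was day 20 for Adamts10, day 30 for Adamts4 and Adamts6, and day 35 for Adamts19.

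Adamts16, known from the developing urogenital tract, had the widest range of the family. It read 256 and 296 on day 0, 315 and 359 on day 3, 119.6 and 154 on day 6, 30.6 and 41.2 on day 8, 13.2 and 6.88 on day 10 and 11.1 and 3.61 on day 14, and between 2.99 and 29.3 on days 18 to 35. The arrays of days 6, 8 and 10 each lay below those of the day before. Adamts16 differed by -2.71 ± 0.34 (log2, SE; adjusted p = 8.57e-06) on day 8 against day 0, as the 1 ADAMTS gene called there, and by -1.56 ± 0.34 (log2, SE; adjusted p = 0.00177) on day 14 against day 8. The second difference was -0.99 with the larger pseudocount, -0.13 with the floor and -0.77 as the mean of its probe sets. A second probe set of Adamts16 was dim throughout, with day means between 6.23 and 40.7, and differed by 0.11 on day 35 against day 0 where the one used differed by -4.23. The summed intensity of 8 measured epididymis markers was 272 to 299 on day 0, 270 to 285 on day 6 and 183 to 202 on day 8. It was 56.5 to 82.5 on day 14 and 206 to 208 on day 30, where Adamts16 read 29.3 and 20.0. Defb42 read 6.14 on day 14 and 231 on day 3, and each of the others had day means of at most 57.7. The part of epididymal tissue in the values of Adamts16 was not tested.

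Adamts1, a proteoglycanase that cuts versican and aggrecan, declined in small steps. Its arrays read 379 and 435 on day 0, 457 and 412 on day 3, 261 and 259 on day 6, 231 and 227 on day 8, 138 and 137 on day 10 and 98.5 and 129.6 on day 14. They were 69.4 and 62.1 on day 18, 43.6 and 41.7 on day 20, 49.1 and 44.6 on day 30 and 17.9 and 23.7 on day 35, and between neighbouring days only days 0 and 3 overlapped. Day 30 was above day 20, and every other day from day 6 on was below the day before. The difference was -1.26 ± 0.16 (log2, SE; adjusted p = 1.94e-06) on day 20 against day 14 and -3.86 ± 0.16 (log2, SE; adjusted p = 3.47e-14) on day 35 against day 0, where the fold was 0.0688.

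Adamts5, the neighbour of Adamts1 on chromosome 16 and a strong aggrecanase, kept its level longer. It read 1101 and 1150.0 on day 0, 1467 and 1696 on day 3, 1163 and 1283 on day 6, 1075 and 1241 on day 8, 831 and 953 on day 10 and 948 and 1179 on day 14. It read 476 and 507 on day 18, 350.3 and 377 on day 20, 171 and 127 on day 30 and 144 and 94.7 on day 35. The drop set in between days 14 and 18, with no overlap of the days on either side. Differences were -1.52 ± 0.16 (log2, SE; adjusted p = 9.38e-08) on day 20 against day 14, -1.26 ± 0.16 (log2, SE; adjusted p = 1.71e-06) on day 30 against day 20 and -3.19 ± 0.16 (log2, SE; adjusted p = 3.37e-13) over the course. As the mean of its probe sets the first was -0.83 and the second -0.91, neither past the threshold of size.

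Adamts9, a versican-cutting protease close kin to Adamts20, was lower by day 14, when both arrays (391 and 355) lay below all those of days 0 to 10. It read 355 to 558 on days 0 to 14, 197 and 175 on day 18, 158 and 139 on day 20, 97.7 and 92.1 on day 30 and 57.3 and 63.4 on day 35, each day lower than the one before. The difference on day 20 against day 14 was -1.29 ± 0.11 (log2, SE; adjusted p = 7.50e-09). As the mean of its probe sets this was -0.92 and not called. Adamts20 read 57.9 and 67.0 on day 0, 43.9 and 60.1 on day 3, 41.6 and 38.1 on day 6, 22.7 and 28.3 on day 8 and 13.1 and 14.4 on day 10, and 2.46 to 22.0 from day 14 on. All its arrays after day 8 were below those of days 0 to 8, and on day 35 against day 0 it differed by -2.06 ± 0.43 (log2, SE; adjusted p = 2.38e-04).

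Adamts10, a protease that binds fibrillin microfibrils, read 167 and 179 on day 0, 177 and 214 on day 3, 189 and 183 on day 6, 125 and 158 on day 8, 118 and 112 on day 10 and 111 and 96.7 on day 14. It read 91.6 and 77.6 on day 18, 74.2 and 61.7 on day 20, 21.1 and 21.0 on day 30 and 8.51 and 54.6 on day 35, where the 2 arrays were far apart. All arrays from day 30 on were below all earlier ones. The difference was -1.39 ± 0.36 (log2, SE; adjusted p = 0.00398) on day 30 against day 20 and -0.97 with the floor.

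Counts by role on day 35 against day 0 stand beside 27.6% of all genes lower and 27.3% higher. By role, 5 of 7 proteoglycanases fell and 0 rose. Beside those above, Adamts4 fell by 2.18 on the log2 scale, while Adamts8 (-0.15) and Adamts15 (-0.46) were not called. Adamts3, a procollagen N-proteinase, differed by -0.32 and was not called. Over the 10 days, however, Adamts3 and Adamts8 were called by the moderated F test (adjusted p = 0.0273 and 0.0396). The means of Adamts3 were 45.5 on day 0, 13.6 on day 3 and 34.7 on day 35. Those of Adamts8 were 9.60 on day 14, 53.1 on day 18 and 15.2 on day 20. Of the 7 other ADAMTS genes 6 fell, with Adamts12 (-0.89 and not called as the mean of its probe sets) at -1.95, Adamts7 at -1.46, Adamts6 at -1.41 and Adamts19 at -1.40. The 1 that rose, Adamts18, differed by 1.16 ± 0.51 (log2, SE; adjusted p = 0.0488) with means of 17.1 on day 35 and 3.52 on day 0, and its call was kept under 11 of 30 other settings, not without any 1 array of days 0 and 35 and not without most single arrays of other days up to day 14. Adamts2 and Adamts17 are not analysed here.

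**Figure D5:**
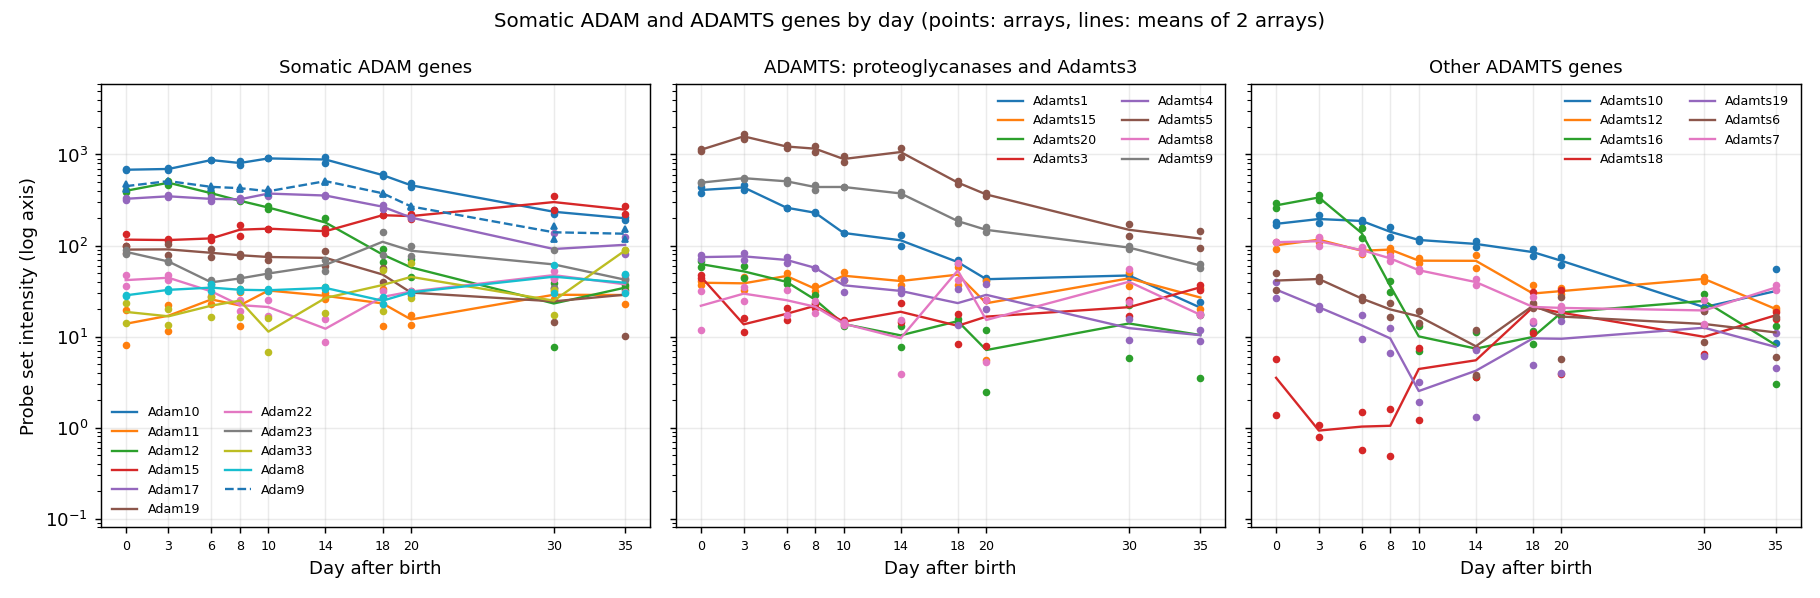
Probe set intensity (log axis) against day after birth for the 11 tested somatic ADAM genes (left), for the proteoglycanases with Adamts3 (middle) and for the other ADAMTS genes (right), 1 point per array and lines through the means of 2 arrays. Adam10, Adam9, Adam17, Adamts5 and Adamts9 read lower on day 20 and later than on any array up to day 14, and Adamts16 falls by day 10.

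Genes that act with these proteins were read from lists drawn up by known function. The first list held 11 tested genes needed for the folding, processing or sperm surface transport of sperm ADAM proteins in mice. Of these, 10 rose and 0 fell on day 35 against day 0, beside 27.3% and 27.6% of all genes. Their median difference was 4.64, against -0.03 for all genes. The widest ranges were those of Cmtm2b, Cmtm2a and Prss37, which are needed for Adam3 on mature sperm. Cmtm2b, with means of 4875 on day 30 and 0.766 on day 3, rose too (adjusted p = 3.11e-17). Cmtm2a rose by 7.33 ± 0.23 (log2, SE; adjusted p = 5.28e-16) and Prss37 by 7.69 ± 0.39 (log2, SE; adjusted p = 6.45e-13).

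The counts of these lists stand beside 27.3% of all genes higher and 27.6% lower on day 35 against day 0. Of 14 tested ADAMTS substrates and cofactors, 11 fell and 2 rose (median -2.74). Col1a1, a chain of type I collagen, fell by 6.69 on the log2 scale and Col1a2 by 4.68, while Comp, a cartilage matrix protein known as a substrate of Adamts7 and Adamts12, rose by 4.30. Of 6 inhibitors of metalloproteases 3 fell and 0 rose, namely Timp1 at -1.92, Timp3 at -1.84 and Reck at -1.54. Of 5 ADAMTS-like genes, which encode relatives without a protease domain, 1 fell, Adamtsl4 at -1.27, which is no more than the share of all genes.

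Of 9 genes that mature or guide Adam10 and Adam17, 4 fell and 1 rose. Tspan15 and Tspan14, tetraspanins that carry Adam10, differed by -3.56 and -3.40, and Tspan33, another of the same group, by 1.78. Of 19 sheddase substrates 6 fell and 3 rose, a share of falls near that of all genes. Notch2 differed by -2.85, Kitl, the ligand of the Kit receptor of spermatogonia, by -2.52, and Notch1 by -1.15.

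Markers of other cell types in the organ differed in direction. Their counts stand beside 27.3% of all genes higher and 27.6% lower on day 35 against day 0. On day 35 against day 0, 4 of 5 peritubular myoid markers, 5 of 6 endothelial markers, 3 of 5 Leydig cell markers and 5 of 9 Sertoli cell markers fell, and 0, 0, 0 and 3 of them rose. The summed myoid markers read 1810 to 2013 on day 35 and 4395 to 4555 on day 0, the endothelial markers 147 to 209 on day 35 and 591 to 644 on day 0. Of 6 macrophage markers 2 rose and 0 fell, with sums of 983 to 1041 on day 35 and 529 to 545 on day 0, and of 8 spermatogonia markers 2 rose and 4 fell. All 8 spermatocyte, all 8 round spermatid and all 8 elongating spermatid markers rose. The part of these cell types in the falls of the ADAMTS and somatic ADAM genes was not tested.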

How the data were processed

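Whole mouse testis RNA was measured on 20 arrays, 2 for each of 10 days. Trizol extraction and biotin labelling by one-cycle 3' amplification are named per the labels. The deposited value of each probe set is a linear intensity, with no detection call. The 2% trimmed mean is 125 on every array, so the authors' deposited values were taken as scaled to it, and no further normalization was applied. The software behind these values is not given in the sources.

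Of 74 probe sets with a single ADAM or ADAMTS symbol, 1 was used per gene, and 5 with several symbols were left out. Testing required an intensity above the array's 40th percentile in 2 or more arrays, which 41 of the 43 members and 16429 genes in all passed. Values were transformed as log2(intensity + 7.83), the pooled 20th percentile. Day was fitted as a factor with limma 3.58.1 in R 4.3.3 (lmFit, eBayes with a trend; residual degrees of freedom 10, prior 8.88). Two-sided p-values had Benjamini-Hochberg adjustment over the 16429 genes. The number of arrays limits the precision. On simulated arrays for day 8 against day 0 with 16429 genes, 24%, 66%, 90% and 100% of 50 genes each were called at true log2 differences of 1, 1.5, 2 and 3, and 5 of 16229 unchanged genes. At a true difference of 1, 46% passed the adjusted p, so the threshold of size also lowers the 24%. The simulated noise was normal, with 1 SD per gene for all days. In the data the median replicate SD was 0.111 on day 8 and 0.182 on day 30, so later intervals are not covered.

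Members, lists and tests were chosen with earlier results of these data known. Values of single arrays are given for the 8 ADAM and 6 ADAMTS genes with the widest range of day means among those called over the course, and for a fixed set of sperm surface, sheddase, epididymal and matrix genes. Outside this rule, some single arrays of Adam6b, Adam33 and Adam4 are given too. From a related list at most the 3 members with the widest range are named. Promoter windows came from a RefSeq table of GRCm38.p6, which names the members' chromosomes too, and the probe set table names no build. Alternatives were quantile normalization, a common median, pseudocounts at the 5th and 40th percentiles, a floor at the pooled median, no filter, the mean of all probe sets, no trend, an adjusted p under 0.01, a replicate block and leaving out each array. Deviations of same-numbered arrays correlated between -0.0249 and 0.0561 over 45 pairs of days, so no pattern shared across genes was seen. A pairing of arrays that acts on few genes would not show in this check. Columns of values not used numbered 0. Plots used matplotlib 3.10.9 and Python 3.11.15.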

Additional observations from a re-analysis of the deposited data

How the results depend on the processing

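Of 68 calls of members, 44 were kept under all 30 other settings and 47 under the 10 that do not leave out an array. The rise of Adam15 on day 35 against day 0 reversed to -0.083 as the mean of its probe sets, 3 of which differ in sign from the one used. Of 220 recounts of called members, 189 stayed within 1.5 times the reported count. With the floor, 2 in place of 4 ADAM genes rose on day 14 against day 8, 6 in place of 10 on day 20 against day 14, and 8 in place of 14 ADAMTS genes were called over the course. With an adjusted p under 0.01 that last count was 9. ADAM genes lower numbered 0 in place of 1 on day 8 against day 0 with quantile normalization, the 40th percentile pseudocount, the floor or an adjusted p under 0.01. On day 20 against day 14 they numbered 4 in place of 2 with a common median and 1 with the 40th percentile pseudocount or an adjusted p under 0.01, and on day 30 against day 20 they numbered 4 in place of 2 with a common median and 1 with that pseudocount, the floor or the mean of probe sets. The common median moved the median of all genes to -0.18 on day 20 against day 14 and to -0.27 on day 30 against day 20.

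ADAMTS genes lower numbered 2 in place of 1 on day 8 against day 0 with the mean of probe sets. On day 14 against day 8 they numbered 2 in place of 1 with a common median or the 5th percentile pseudocount and 0 with the 40th percentile pseudocount or the mean of probe sets. They numbered 5 in place of 3 on day 20 against day 14 with a common median and 1 with the mean of probe sets, and 1 in place of 2 on day 30 against day 20 with the floor or the mean of probe sets. ADAMTS genes higher numbered 1 in place of 0 on day 20 against day 14 with the 5th percentile pseudocount, which is Adamts16. On day 35 against day 0 they numbered 0 in place of 1 with quantile normalization, a common median, the 40th percentile pseudocount, the floor, no trend or an adjusted p under 0.01. The floor sets dim values equal, and the other causes were not tested. Leaving out 1 array at a time, the count of ADAM genes lower ran from 0 to 1 on day 8 against day 0 and from 1 to 2 on day 20 against day 14, and on day 30 against day 20 from 2 to 3. ADAMTS genes lower ran from 1 to 3 on day 8 against day 0, from 1 to 2 on day 14 against day 8 and from 2 to 3 on day 30 against day 20. ADAMTS genes higher ran from 0 to 1 on each of the last 3 comparisons. Adamts19 and Adamts20 entered the count on day 8 against day 0 without either array of day 30, Adamts19 also without day 20 replicate 2 and Adamts20 also without day 35 replicate 1. On day 20 against day 14, the call of Adam34 was lost without day 14 replicate 1 (1.22) or day 20 replicate 2 (0.98), and that of Adam19 without day 14 replicate 1 (-0.83) or either array of day 20. On day 35 against day 0, the call of Adam15 was lost without day 0 replicate 1 (0.84) or day 35 replicate 2 (0.90), that of Adamts6 without day 0 replicate 2 (-1.15) or day 35 replicate 1, and that of Adamts19 without day 0 replicate 1 (-1.16) or day 35 replicate 1 (-1.10). The floor also ended the calls of Adamts20 (-0.85), Adamts6 (-0.27) and Adamts19 (-0.095) on that comparison. With the replicate number as a block, 17 ADAM genes rose and 11 ADAMTS genes fell on day 35 against day 0, and all 22 counts were as reported. All genes called on day 8 against day 0 numbered 641 with the 40th percentile pseudocount in place of 995.

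With 2 arrays a day, no detection calls and unknown software, a dim probe set has no stated detection limit. 20 of the 43 members had more than 1 probe set, and of 23 others that passed the filter 6 differed in sign from the one used on day 35 against day 0. Adam6a, Adam6b, the testases and the fertilin alpha genes have close copies, so their probe sets can share signal.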
